A study of Homo sapiens with 4 samples.

Results

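Glia and radial glia are recognized by a small set of genes, and 8 of these were followed through human enteric ganglioids by single-nucleus RNA sequencing. The set comprised S100B, GFAP, FABP7, SLC1A3, SLC1A2, AQP4, VIM and NES, picked by symbol from the 36601 features of the count tables. Ganglioids are free-floating clusters of enteric neurons and progenitors made from the H9 human embryonic stem cell line through vagal neural crest. Samples came from 2 control and 2 PP121 cultures, numbered in the titles as replicates 1 and 2 of each group. By the titles, all belonged to the first of the study's ganglioid stages. PP121, an inhibitor of tyrosine kinases and of the PI3K family, was applied (2 µM) between days 15 and 20 only, well before the nuclei were taken. The deposited annotation places control 1 and PP121 1 at day 42 and control 2 and PP121 2 at day 38. Day and replicate number therefore cannot be told apart.

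Enteric glia descend from the neural crest and carry the calcium-binding protein S100B, the intermediate filament protein GFAP, the fatty-acid-binding protein FABP7 and the crest factor SOX10. Radial glia, the stem cells of the central nervous system, carry the glutamate transporter SLC1A3, the filament proteins vimentin (VIM) and nestin (NES), and FABP7. Astrocytes add a second glutamate transporter, SLC1A2, and the water channel AQP4. Several of these genes are shared with cells that are not glia. Mesenchyme uses vimentin, many immature cells use nestin, and some neurons transcribe SLC1A2.

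Counts of unique molecular identifiers (UMIs, each marking 1 captured RNA molecule) were summed per sample and annotated class, and levels are given in CPM, the UMIs of a gene per 1000000 UMIs of that sum. Of 25306 deposited nuclei, 14812 carried a class, 2912 to 4587 per sample, with 23348045 to 34123759 UMIs per sample and a median of 6289 to 7071 UMIs per nucleus. The classes were enteric neurons (976 to 2301 nuclei per sample), progenitor 1 (501 to 1197), progenitor 2 (683 to 1155), mesenchymal (33 to 422), epithelial (9 to 37) and unknown (60 to 211). Samples shared between 0 and 8 barcodes among annotated nuclei. Sample names inside the annotation of both control tables differ from the titles. There control 1 is named a stage 1 replicate 2 and control 2 a stage 2 replicate 1. The titles are followed here for stage and replicate number. The controls had been annotated on their own and the PP121 samples in an analysis that merged the conditions, so effects on the 8 genes are also given for classes drawn by clustering all 4 samples jointly. Within the enteric neurons, the subtype annotation calls 143 nuclei of PP121 1, 61 of PP121 2 and 16 of each control Non-Neuronal, and neuronal values are given with and without these where they differ.

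No class of the annotation is named glia, and the crest markers SOX10 and FOXD3 were low in progenitor 2. SOX10 reached 14.0 CPM at most in neurons and 8.70 to 12.8 in progenitor 2. FOXD3, an early crest factor, stood at 0 to 0.463 in progenitor 2. The 8 markers listed for neural crest glia summed to 42.3 to 60.3 CPM in progenitor 2. They reached 123 to 188 in mesenchymal nuclei, where 5 averaged at least 10 CPM. Their sum was 57.0 to 76.6 in progenitor 1, 58.1 to 72.0 in neurons and 30.7 to 41.3 in the unknown class. The 11 markers listed for radial glia and neural stem cells summed to 1095 to 1380 CPM in progenitor 2 and 867 to 1254 in the unknown class, which overlapped, and to 586 to 831 in mesenchymal nuclei, 477 to 722 in progenitor 1 and 224 to 281 in neurons. Of the 11, 9 averaged at least 10 CPM in progenitor 2, and 9 did in the unknown class. The 12 markers listed for astrocytes summed to 784 to 930 CPM in progenitor 2. They reached more in mesenchymal nuclei (982 to 1292) and in the unknown class (1481 to 1938). Of the radial glial list, only some genes are given singly. In progenitor 2 PTPRZ1 lay between 456 and 571 CPM, GLI3 between 256 and 528, HES5 between 66.0 and 94.6 and SOX2 between 55.9 and 62.2. PTPRZ1 encodes a receptor phosphatase, GLI3 a hedgehog effector, HES5 a Notch target and SOX2 a stem cell factor. COL3A1, a fibrillar collagen, stood at 861 to 992 in mesenchymal nuclei and at 2.55 to 17.9 in neurons. STMN2, a neuronal tubulin regulator, stood at 253 to 346 in neurons.

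The defining markers of mature glia were barely detected. GFAP gave 16 UMIs in all annotated nuclei together, 4, 3, 3 and 6 in control 1, control 2, PP121 1 and PP121 2. AQP4 gave 23 UMIs, 6, 5, 8 and 4 in the same order, and S100B gave 60, 17, 17, 14 and 12. These counts were spread thinly, since no nucleus held more than 2 S100B, 2 GFAP or 1 AQP4 UMIs. S100B never exceeded 3.04 CPM in any class of any sample, a value reached in the mesenchymal nuclei of control 2.

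To compare classes of unequal depth, each nucleus was thinned at random to 2000 UMIs, which left out 89 shallower nuclei. GFAP was then seen in 2 of 3776 progenitor 2 nuclei (0.0530%) and 2 of 6536 neurons (0.0306%), and S100B in 4 (0.106%) and 6 (0.0918%). With so few UMIs, these shares are not read as expression. COL3A1, a gene that neurons should lack and that is abundant in mesenchymal nuclei, was seen in 1.96% of neurons. It had far more UMIs than GFAP or S100B, so its share sets no floor for them. Whether the GFAP and S100B UMIs came from free RNA was not tested. AQP4 lies inside AQP4-AS1, a transcript of the opposite strand with 1630 UMIs, against the 23 of AQP4.

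FABP7 had more UMIs than S100B, GFAP or AQP4, 251, and 53.4% of them came from progenitor 2. Progenitor 2 held 6.94, 3.52, 5.42 and 1.54 CPM in control 1, control 2, PP121 1 and PP121 2, that is 62, 19, 43 and 10 UMIs. Neurons held 2.11, 1.08, 0.950 and 0.571 and the unknown class 5.24, 3.60, 1.64 and 1.54, and both overlapped progenitor 2. S100B, at 0.555 to 0.883 CPM in progenitor 2 and 0.228 to 0.369 in neurons, did not overlap between these classes. These values rest on 5, 3, 7 and 5 UMIs in progenitor 2 and 7, 3, 4 and 2 in neurons, too few to be read as expression. Both day-42 samples were above both day-38 samples in progenitor 2 for FABP7, and control 1 alone contributed 121 of all FABP7 UMIs. After thinning, 0.980% of progenitor 2 nuclei and 0.275% of neurons had a FABP7 UMI. The part of free RNA in these shares was not tested.

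**Figure D1:**
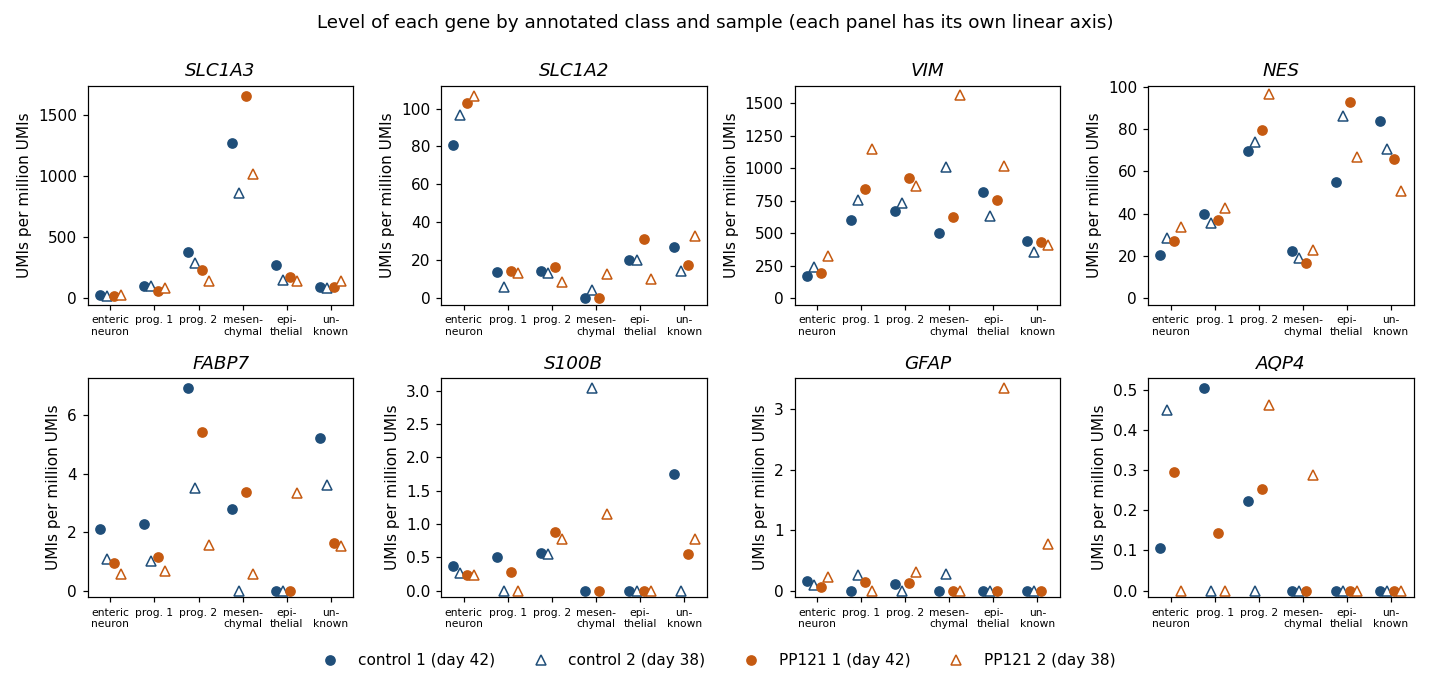
Level of each of the 8 genes, in CPM on a linear axis of its own, by annotated class; 1 point is 1 sample, filled at day 42 and open at day 38, blue for control and orange for PP121. SLC1A3 peaks in mesenchymal nuclei and then progenitor 2, SLC1A2 in enteric neurons, and S100B stays at or under 3.04 everywhere.

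SLC1A3 encodes EAAT1 (also called GLAST), which clears glutamate and is a standard label of radial glia. Its gene spans chr5:36606355-36688334 on the plus strand of GRCh38 and gave 18686 UMIs. The highest level was in mesenchymal nuclei, at 1267, 859, 1655 and 1013 CPM in control 1, control 2, PP121 1 and PP121 2. Progenitor 2 followed with 381, 286, 233 and 143. All 4 mesenchymal values exceeded all 4 progenitor 2 values.

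Below these, epithelial nuclei held 269, 147, 170.2 and 137, from 9 nuclei in PP121 1. Nuclei of the unknown class held 89.6, 82.9, 95.3 and 143, progenitor 1 held 101, 95.6, 59.5 and 83.4, and neurons held 24.1, 19.9, 20.6 and 25.2. Neighbours between progenitor 2 and progenitor 1 in this order overlapped, whereas every neuron value lay below every progenitor 1 value. After thinning, 47.4% of mesenchymal, 33.6% of progenitor 2, 11.9% of progenitor 1 and 3.35% of neuronal nuclei had an SLC1A3 UMI.

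Which class supplied the SLC1A3 of a sample depended on its mesenchymal nuclei. Mesenchymal nuclei numbered 40 and 33 in the day-42 samples and 408 and 422 in the day-38 samples. They gave 9.18% and 14.98% of the SLC1A3 UMIs at day 42, in control 1 and PP121 1, and 58.3% and 68.4% at day 38, in control 2 and PP121 2. Progenitor 2 gave 69.2%, 28.99%, 56.1% and 18% in control 1, control 2, PP121 1 and PP121 2. Over all annotated nuclei the level was 144, 215, 96.7 and 220 CPM. In such sums, fewer nuclei of a class and less RNA per nucleus cannot be told apart, so the class values are the ones described further.

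Neuronal SLC1A3 was set beside a mesenchymal gene. In neurons, COL3A1 stood at 4.12, 17.9, 2.55 and 16.2 CPM, high in the day-38 samples, whereas SLC1A3 there was 24.1, 19.9, 20.6 and 25.2. The ratio of SLC1A3 to COL3A1 UMIs in neurons was 5.85 and 8.05 at day 42, and 1.11 and 1.56 at day 38, against 0.920 to 1.67 in the mesenchymal nuclei themselves. In progenitor 2 the ratio was 103 and 87.8 at day 42 and 10.7 and 6.01 at day 38. The part of RNA from mesenchymal nuclei in the neuronal SLC1A3 values was not tested.

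Among neurons, the level of SLC1A3 was highest in a few annotated subtypes. The control subtype EN 6 held 113 and 72.4 CPM in control 1 and control 2, and the PP121 subtype EN F held 47.6 and 52.9. Nuclei called Non-Neuronal held 75.2 and 58.3 in PP121 1 and PP121 2. All other subtypes with at least 30 nuclei lay between 6.66 and 26.6. EN 6 and EN F also had the lowest STMN2 of the neuronal subtypes, 116 to 143 CPM against 174 to 567, and SOX2 at 29.8 to 63.1 against 0 to 16.1.

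**Figure D2:**
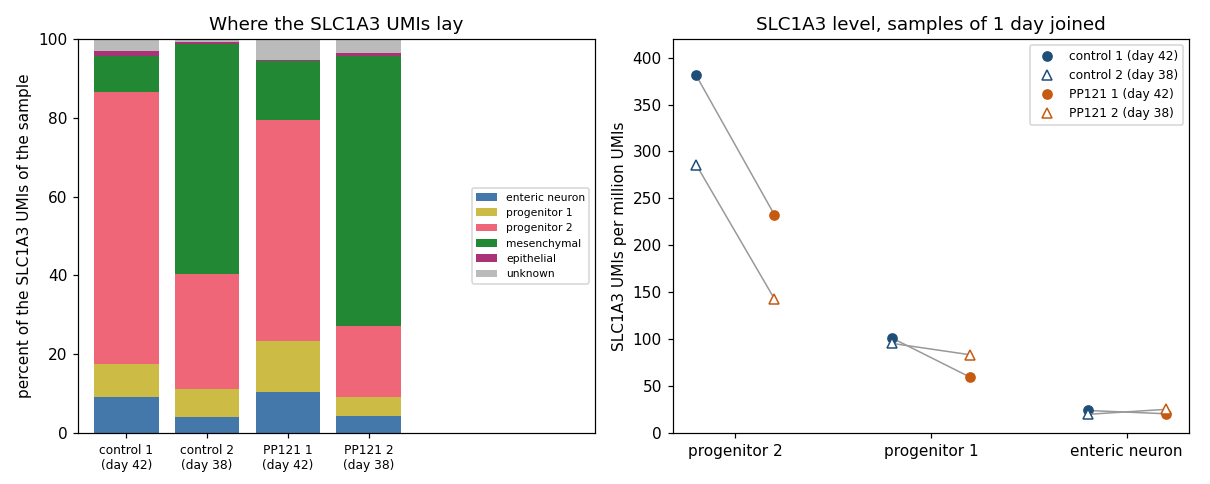
Left, percent of each sample's SLC1A3 UMIs that came from each annotated class, with mesenchymal nuclei giving 9.18% to 68.4%. Right, SLC1A3 level in CPM (linear axis) in progenitor 2, progenitor 1 and enteric neurons, with lines joining the control and PP121 sample of the same day.

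SLC1A2 encodes EAAT2 (GLT-1), the main glutamate transporter of astrocytes. Here it was a neuronal transcript. Its gene, at chr11:35251205-35420063 on the minus strand, gave 6071 UMIs, and neurons, 44.3% of the annotated nuclei, gave 86.7% of them. Neurons held 80.6, 96.5, 103 and 107 CPM in control 1, control 2, PP121 1 and PP121 2. Progenitor 1 held 5.77 to 14.1 and progenitor 2 held 8.65 to 16.7, while the unknown class held 14.4 to 33.0. Every neuronal value exceeded every value of the other classes. Among those, neighbours in the order of the means overlapped, from the unknown class through epithelial nuclei, progenitor 2 and progenitor 1 to mesenchymal nuclei. Mesenchymal nuclei gave 0 UMIs in both day-42 samples. After thinning, 15.2% of neurons but 0.557% of mesenchymal nuclei had an SLC1A2 UMI.

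The neuronal subtypes EN 6 and EN F, high in SLC1A3, were the lowest in SLC1A2. EN 6 held 32.4 and 39.3 CPM and EN F held 15.9 and 16.9, whereas the remaining neuronal subtypes ranged from 50.5 to 205. The highest level was in EN 4 of control 2. Nuclei called Non-Neuronal, also high in SLC1A3, held 71.7 and 74.4 of SLC1A2 in the PP121 samples, inside that range.

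In single neurons thinned to 2000 UMIs there was no common direction. SLC1A2 was seen in 25.7%, 11.4%, 16.9% and 7.84% of the 74, 35, 59 and 51 neurons with an SLC1A3 UMI in control 1, control 2, PP121 1 and PP121 2, and in 13.4%, 16.4%, 15.9% and 16.3% of the others. It was the more frequent beside SLC1A3 in the day-42 samples and the less frequent in the day-38 samples. Neurons annotated as nitrergic (making nitric oxide) held 108, 112, 158 and 187 in control 1, control 2, PP121 1 and PP121 2, against 74.4, 94.8, 93.8 and 101 in the other neurons. The nitrergic value was the higher in each of the 4 samples. Catecholaminergic neurons held 106, 136, 139 and 155, against 75.7, 75.7, 89.6 and 75.3 in the rest. No test is given, since these identities were drawn from the expression of the same nuclei. They are separate labels of the annotation, and levels in its other transmitter identities are not reported here.

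Vimentin was the most abundant of the 8 genes in UMIs, with 62050 from chr10:17228259-17237593 on the plus strand. It was broad outside neurons. Mesenchymal nuclei held 499, 1011, 626 and 1565 CPM in control 1, control 2, PP121 1 and PP121 2. Progenitor 1 held 598, 756, 843 and 1149, and progenitor 2 held 667, 732, 925 and 860.4. Epithelial nuclei held 634 to 1014, and these 4 classes overlapped. The unknown class lay below them at 351 to 438, and neurons lay lowest at 172, 237, 197 and 326, without overlap at either step. VIM thus marked non-neuronal nuclei in general and did not single out progenitor 2.

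EN 6 and EN F were again the exception among neuronal subtypes, with 426 to 568 CPM of VIM against 113 to 292 in the remaining neuronal subtypes. Nuclei called Non-Neuronal held 380 and 537 in PP121 1 and PP121 2. After thinning, 68.2% of mesenchymal, 63.8% of progenitor 2 and 59.7% of progenitor 1 nuclei had a VIM UMI, and 28.99% of neurons.

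Nestin, a filament protein of neural stem cells that assembles with vimentin, gave 4998 UMIs from chr1:156668763-156677397 on the minus strand. Progenitor 2 held 69.4, 73.6, 79.5 and 96.5 CPM in control 1, control 2, PP121 1 and PP121 2. Progenitor 1 held 39.9, 35.6, 36.7 and 42.7, below every progenitor 2 value. Neurons held 20.4, 28.5, 27.1 and 33.6, below progenitor 1 and overlapping the mesenchymal 16.8 to 22.8. The epithelial 54.8 to 92.8 and the unknown class at 50.7 to 83.8 overlapped progenitor 2. After thinning, 13.5% of progenitor 2, 6.195% of progenitor 1 and 4.498% of neuronal nuclei had a NES UMI.

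The radial glial genes were also followed in single nuclei of progenitor 2. In nuclei thinned to 2000 UMIs, SLC1A3 was seen in 42.5%, 37.7%, 31.6% and 17.8% of VIM-positive nuclei of control 1, control 2, PP121 1 and PP121 2, and in 45.5%, 36.2%, 32.0% and 23.7% of VIM-negative nuclei. NES was seen in 12.5%, 14.4%, 17.1% and 17.5% of VIM-positive and in 8.56%, 6.72%, 10.7% and 14.9% of VIM-negative nuclei. NES was more frequent with VIM in all 4 samples, SLC1A3 in control 2 alone. At such depth an absent UMI does not show an absent transcript.

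**Figure D3:**
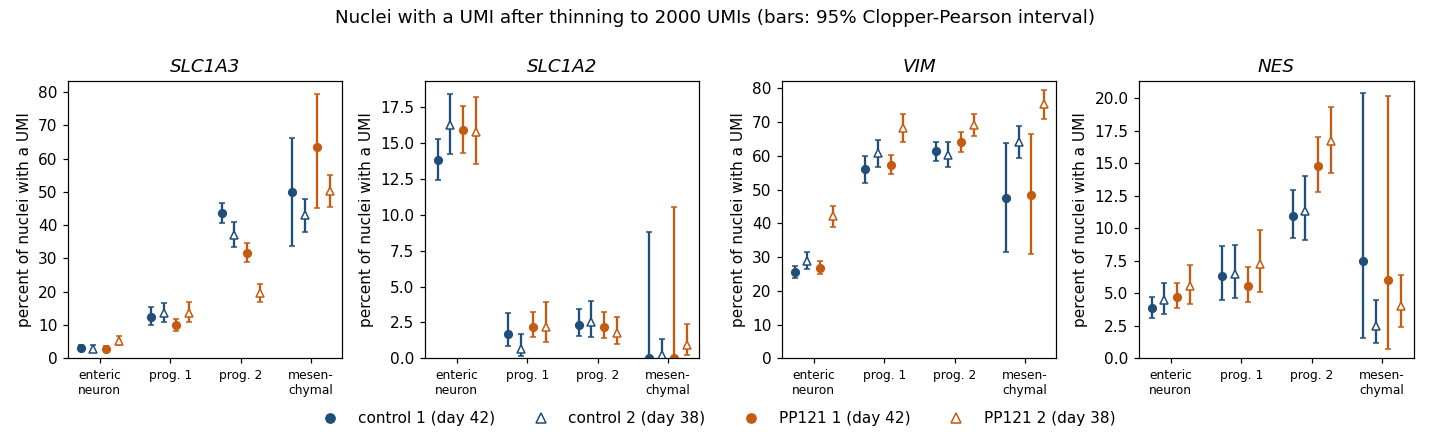
Percent of nuclei with at least 1 UMI of SLC1A3, SLC1A2, VIM or NES after thinning each nucleus to 2000 UMIs, by class and sample, with 95% Clopper-Pearson intervals that cover counting error only. In progenitor 2 the SLC1A3 share of both PP121 samples (31.7% and 19.6%) lies under that of both controls (43.6% and 37.1%).

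PP121 against control was tested with edgeR's quasi-likelihood test on the UMI sums of a class, adjusted by Benjamini-Hochberg over all genes tested. Without a term for the day, 0 of 24123 genes were called over all nuclei, 0 of 21243 in neurons, 0 of 16083 in progenitor 1 and 0 of 18885 in progenitor 2, while 4.61%, 12.0%, 3.86% and 9.39% had an unadjusted p under 0.05. DESeq2's Wald test of the same sums called 50, 80, 1 and 106. The day as a block paired control 1 with PP121 1 and control 2 with PP121 2. It left 1 residual degree of freedom. With this block edgeR called 0.883%, 14.8%, 3.69% and 6.71% of genes. The pairing rests on the annotated day, while sample names inside the control annotation number the controls otherwise. Whether the control tables were exchanged was not tested, so calls made with the block depend on that day. Of the 8 genes, 6 passed the filter on low counts over all nuclei, 5 in neurons, 4 in progenitor 1 and 5 in progenitor 2. GFAP and AQP4 passed in none of these fits, S100B passed only over all nuclei, and FABP7 failed in progenitor 1.

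In progenitor 2, SLC1A3 fell and VIM rose with PP121, in the fit with the day as a block. For SLC1A3 the control values were 381 and 286 CPM and the PP121 values 233 and 143, without overlap, and 21.8% of all genes tested in the class also had both PP121 samples below both controls. Within a day the log2 ratio was -0.71 at day 42 and -1.0 at day 38. The fit with the block gave -0.82 on the log2 scale (SE 0.12, adjusted p = 2.24e-07, edgeR), where 2.32% of genes were called lower. Without the block the estimate was -0.80 (adjusted p = 0.397, edgeR). It was called in all 5 fits with the block, which included the joint classes (-0.88, adjusted p = 0.00012, edgeR, where 3.56% of genes were called and 1.22% called lower) and DESeq2's Wald test (adjusted p = 0.00011).

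The share of progenitor 2 nuclei with an SLC1A3 UMI after thinning went the same way. Control samples had 40.4% ± 4.64 and PP121 samples 25.7% ± 8.56 (mean ± SD, n = 2 each), a difference of -11.9 percentage points at day 42 and -17.5 at day 38 (exact permutation test, two-sided, p = 0.333, the smallest that 2 samples against 2 allow). In the joint cluster that held most progenitor 2 nuclei, the SLC1A3 level was 435, 301, 255 and 163 in control 1, control 2, PP121 1 and PP121 2. Progenitor 2 was not made up alike in the groups. Another joint cluster held 24 and 50 progenitor 2 nuclei of the controls and 166 and 215 of the PP121 samples, and SLC1A3 there was 336 in control 2, 216 in PP121 1 and 125 in PP121 2, with under 30 nuclei in control 1. COL3A1 in progenitor 2 was 3.69 and 26.8 in control and 2.65 and 23.8 in PP121.

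In progenitor 1, SLC1A3 was 101 and 95.6 CPM in control and 59.5 and 83.4 in PP121, without overlap, as were 11.2% of all genes in that direction. The blocked fit gave -0.51 (SE 0.18, adjusted p = 0.104, edgeR), short of the threshold, and -0.50 (adjusted p = 0.482, edgeR) in joint classes. In neurons it gave 0.07 (SE 0.15, adjusted p = 0.806, edgeR), and -0.33 (adjusted p = 0.315, edgeR) without the nuclei called Non-Neuronal or -0.48 (adjusted p = 0.0841, edgeR) in joint classes. The difference of the PP121 effect on SLC1A3 between progenitor 2 and neurons was -0.91 (SE 0.34, adjusted p = 0.725, edgeR), and -0.93 (SE 0.20, adjusted p = 0.0576, edgeR) with the day as a block within classes. With joint classes it was -0.41. Without that block edgeR called 0 of 20664 genes as different between these classes, with 1237 at an unadjusted p under 0.05. That the effect differed between the classes was therefore not shown.

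With the day as a block, VIM was called higher in 3 annotated classes, and of these in progenitor 1 alone when classes were drawn jointly. In progenitor 1 it went from 598 to 843 CPM at day 42 and from 756 to 1149 at day 38, and the groups did not overlap, as for 16.8% of genes in that direction. The blocked estimate was 0.53 (SE 0.14, adjusted p = 0.00695, edgeR), where 2.9% of genes were called higher, and joint classes gave 0.90 (adjusted p = 0.0245, edgeR), where 0.57% were called and 0.51% called higher. In progenitor 2 it went from 667 to 925 at day 42 and from 732 to 860.4 at day 38. The groups did not overlap, as for 18.2% of genes in that direction. The blocked estimate was 0.38 (SE 0.11, adjusted p = 0.0156, edgeR), where 4.38% of genes were called higher. This call was lost in joint classes (0.31, adjusted p = 0.0771, edgeR). By DESeq2's Wald test with the block, VIM missed the threshold in each of the 3 classes, with adjusted p = 0.12 in progenitor 1, 0.22 in progenitor 2 and 0.12 in neurons.

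Neither annotated nor joint progenitor 1 was made up alike in the groups. In 1 joint cluster, progenitor 1 nuclei numbered 23 and 9 in the controls and 315 and 24 in PP121. This cluster, part of joint progenitor 1, also held 103 and 46 annotated neurons of the controls and 50 and 11 of PP121. As a whole it held VIM at 380 and 466 CPM in the controls and 1417 and 2648 in PP121. All of joint progenitor 1 held 173 and 108 annotated neurons of the controls and 57 and 15 of PP121. Their part in the joint VIM estimate was not tested. In the joint cluster with most progenitor 1 nuclei, VIM was 636 and 765 in control 1 and control 2 and 780.01 and 1168 in PP121 1 and PP121 2, again without overlap. In the joint cluster with most progenitor 2 nuclei, VIM was 688 and 788 in the controls and 1005 and 965 in PP121. There too the groups did not overlap. The share of all genes without overlap is not given for either joint cluster.

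In neurons VIM went from 172 to 197 at day 42 and from 237 to 326 at day 38, and the groups overlapped. The blocked estimate was 0.36 (SE 0.09, adjusted p = 0.00732, edgeR), where 7.97% of genes were called higher, and 0.33 (adjusted p = 0.0640, edgeR) in joint classes, where the call was lost. Nuclei called Non-Neuronal carried part of this. Without them VIM was 168 and 172 at day 42 and 234 and 304 at day 38, and the estimate was 0.25 (adjusted p = 0.121, edgeR). Over all nuclei VIM was 372 and 546 in control and 518 and 779 in PP121, an estimate of 0.51 (SE 0.11, adjusted p = 0.0827, edgeR). VIM was higher in the PP121 sample of each day in every one of these class sums.

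SLC1A2 in neurons was 80.6 and 96.5 CPM in control and 103 and 107 in PP121, without overlap, as were 19.7% of genes in that direction. The blocked estimate was 0.29 (SE 0.10, adjusted p = 0.0488, edgeR) and 0.33 (adjusted p = 0.0454, edgeR) without the nuclei called Non-Neuronal. It was not called with DESeq2's size factors (adjusted p = 0.0749, edgeR) or in joint classes (adjusted p = 0.164, edgeR, where 6.34% of genes were called). STMN2, the neuronal marker, was 253 and 268 in control and 321 and 346 in PP121, and its part in the SLC1A2 values was not tested.

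NES in progenitor 2 was 69.4 and 73.6 CPM in control and 79.5 and 96.5 in PP121, without overlap, as were 18.2% of genes in that direction. The blocked estimate was 0.32 (SE 0.13, adjusted p = 0.147, edgeR), and 0.18 (adjusted p = 0.488, edgeR) in joint classes. In the joint cluster with most progenitor 2 nuclei NES was 76.4 and 73.1 in the controls and 74.4 and 80.8 in PP121, which overlapped. In neurons the blocked estimate was 0.37 (SE 0.13, adjusted p = 0.0553, edgeR), and 0.31 (adjusted p = 0.171, edgeR) in joint classes. Over all nuclei NES was 38.9 and 39.4 in control and 43.4 and 52.0 in PP121, without overlap, as were 17.6% of genes in that direction. FABP7 in neurons was 2.11 and 1.08 in control and 0.950 and 0.571 in PP121, without overlap, as were 25.4% of genes in that direction, with a blocked estimate of -1.04 (SE 0.44, adjusted p = 0.122, edgeR) from 73 UMIs in all, and -0.92 (adjusted p = 0.237, edgeR) in joint classes. S100B, tested only over all nuclei, gave -0.33 (SE 0.43, adjusted p = 0.787, edgeR).

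**Figure D4:**
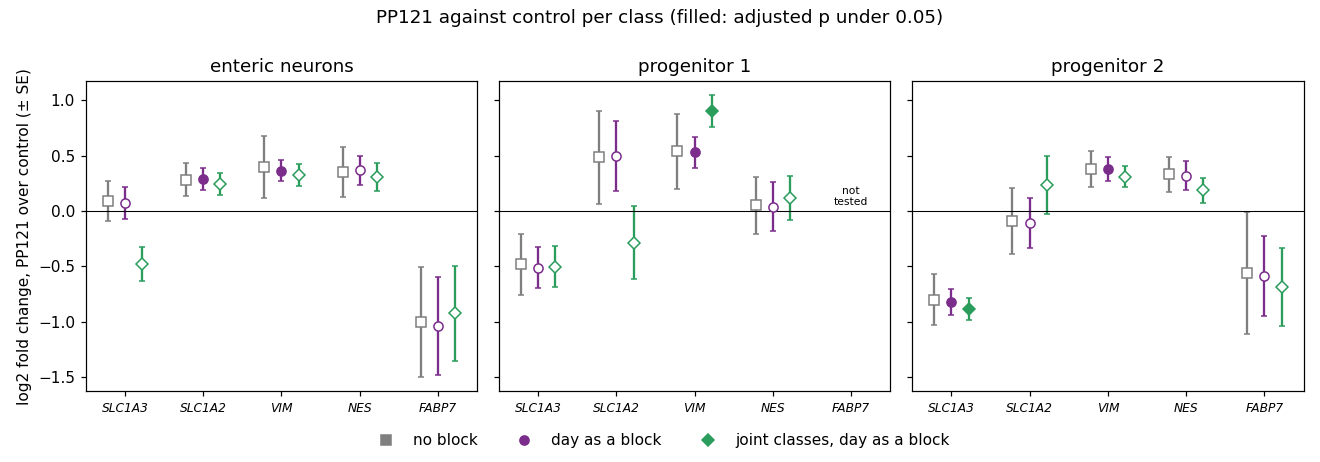
Log2 fold change of PP121 over control (± SE) for 5 of the genes in enteric neurons, progenitor 1 and progenitor 2, from edgeR without a block, with the day as a block, and with joint classes and the block; a filled symbol marks an adjusted p under 0.05 and an open one a value above it. SLC1A3 in progenitor 2 sits between -0.88 and -0.80 in all 3 fits and is filled in both with the block.

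SLC1A3 was set beside other genes of the same programmes. Counts over a list are to be read against the share of all genes called in the same blocked fit, 0.883% over all nuclei, 14.8% in neurons (7.97% called higher), 3.69% in progenitor 1 (2.9% called higher) and 6.71% in progenitor 2 (4.38% called higher), and against the unlike make-up of the progenitor classes given above. In these fits, the list of radial glia and neural stem cells had 3 of 10 tested genes called higher in progenitor 2 and none lower, with a median log2 change of 0.20 against 0.00 over all genes. They were PROM1, which encodes a surface protein of stem cells (1.44, adjusted p = 8.30e-09, edgeR), HES1, a Notch target (0.65, adjusted p = 0.000955, edgeR), and GLI3 (0.50, adjusted p = 0.00139, edgeR). In neurons PROM1 (1.21) and GLI3 (0.58) were called higher, and over all nuclei PROM1 alone (1.51). In progenitor 1 none of the 10 was called. Without the nuclei called Non-Neuronal, neither PROM1 nor GLI3 was called in neurons (adjusted p = 0.195 and 0.335, edgeR). In joint classes PROM1 and GLI3 were called in progenitor 2, HES1 was not, and in neurons neither PROM1 nor GLI3 was called, while PTPRZ1 was called lower.

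The list of neural crest glia had no gene called in progenitor 2 (5 of 8 tested, median -0.38), in progenitor 1 (5 tested, median -0.30) or over all nuclei (8 tested, median -0.20). In neurons NGFR, a neurotrophin receptor, was called lower (-0.42, adjusted p = 0.0224, edgeR), 1 of 7 tested, where 14.8% of all genes were called, and in joint classes none was. The summed level of this list was 42.3 to 60.3 CPM in progenitor 2, below the 123 to 188 of mesenchymal nuclei.

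Of the list of astrocytes, NFIA (-0.997, adjusted p = 1.99e-07, edgeR) and NFIB (-0.85, adjusted p = 0.0215, edgeR), factors of gliogenesis, were called lower in progenitor 1, 2 of 7 tested, where 3.69% of all genes were called, and none in the other classes. In joint classes neither was called in progenitor 1, and NFIB was called lower in neurons and progenitor 2. NFIA in annotated progenitor 1 was 238 and 368 CPM in control and 113 and 201 in PP121. Of the oligodendrocyte lineage, MBP was called lower in progenitor 2 (-0.99, adjusted p = 0.0229, edgeR), 1 of 2 tested, also in joint classes, and no gene in the other classes. The paralogs of the members had no gene called over all nuclei (12 tested), in neurons (9), in progenitor 1 (7) or in progenitor 2 (8).

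Of the list of intermediate filaments, the relatives of VIM and NES, 1 of 7 tested genes was called in each progenitor class, 1 of 9 over all nuclei and 4 of 8 in neurons, where 14.8% of all genes were called. NEFM, a neurofilament subunit, was called higher in neurons (0.95), progenitor 1 (1.18), progenitor 2 (0.85) and over all nuclei (0.82). In neurons NEFL (0.49) and the nuclear lamin LMNA (0.58) were also called higher and PRPH, peripherin, lower (-1.38). In joint classes these 4 were called in neurons again and none of the list in the progenitor classes.

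Of the list of neurons, 5 of 10 were called higher in enteric neurons, with GAP43 (0.57) and STMN2 (0.40) among them, 3 of 8 in progenitor 1, 1 of 9 in progenitor 2 and 1 of 10 over all nuclei, against 7.97%, 2.9% and 4.38% of all genes called higher in the 3 classes. In joint classes 4 of 10, 0 of 8 and 2 of 9 were. Of the annotated progenitor 1 nuclei, 156 of PP121 1 and 48 of PP121 2 lay in 1 joint cluster of the neuron class, against 6 of each control.

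Genes of cell division were called higher in the annotated progenitor classes and not in the joint ones. Of the list of cycling cells, MKI67 (1.06 and 0.76), ASPM (1.03 and 0.53) and TOP2A (0.73 and 0.39) were called higher in progenitor 1 and progenitor 2, 3 of 5 in each, against 2.9% and 4.38% of all genes, and TOP2A in neurons (0.43), with none over all nuclei. In joint classes none of the 5 was called in neurons, progenitor 1 or progenitor 2. Their part in the VIM values was not tested. Nuclei annotated as G2M were set against G1 of the same sample. In progenitor 1, where 7.34% of genes were called, VIM differed by 0.25 (SE 0.09, adjusted p = 0.0904, edgeR), SLC1A3 by 0.27 (adjusted p = 0.224, edgeR) and NES by -0.06 (adjusted p = 0.899, edgeR).

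In progenitor 2, where 10.6% were called, SLC1A3 was lower in G2M by -0.25 (SE 0.08, adjusted p = 0.0342, edgeR) and NES higher by 0.36 (SE 0.11, adjusted p = 0.0451, edgeR). VIM differed by 0.11 (adjusted p = 0.368, edgeR). In joint classes, where 15.5% were called, SLC1A3 was among them again (-0.39, adjusted p = 0.00138, edgeR) and NES was not (0.13, adjusted p = 0.474, edgeR). Within G1 nuclei of progenitor 2 alone, SLC1A3 was 411 and 294 CPM in control and 252 and 140.0 in PP121, without overlap. The share of all genes without overlap is not given for G1 nuclei.

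The remaining lists held markers of cells that the ganglioids could also contain, to be read against the same shares. Of motile cilia genes, 4 of 10 were called higher over all nuclei (CFAP299 2.85, CDC20B 3.46 and DNAH11 1.16 among them), 2 of 5 in progenitor 1 and 1 of 7 in neurons, and in progenitor 2, of 7 tested, CFAP299 (1.32) and DNAH11 (0.63) were higher and DNAH9 (-0.59) lower. Of mesenchyme genes, TWIST1 was called higher in neurons (1.91), 1 of 8, and none elsewhere. Of epithelium genes, CLDN6 was called higher and CDH1 lower in progenitor 1, of 4 tested, and none elsewhere. Of melanocytes, TYR was called higher in progenitor 2 (1.48), 1 of 5, and none elsewhere. In joint classes DNAH11 in neurons and CFAP299 in progenitor 2 were the only genes of these 4 lists called.

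Several of the 8 genes also differed between the days. With the treatment as a term, 5.52% of genes were called between day 42 and day 38 over all nuclei, 9.49% in neurons, 14.6% in progenitor 1 and 4.81% in progenitor 2. Without that term edgeR called 0.721% over all nuclei and none in the classes, and none of the 8 genes. At an unadjusted p under 0.05 it had 1574 genes in neurons, 3106 in progenitor 1 and 1219 in progenitor 2. VIM was lower at day 42 in neurons (-0.65, SE 0.09, adjusted p = 1.66e-05, edgeR), in progenitor 1 (-0.55, SE 0.14, adjusted p = 0.00157, edgeR) and over all nuclei (-0.65, adjusted p = 0.0113, edgeR), but not in progenitor 2 (-0.07, adjusted p = 0.846, edgeR).

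NES was lower at day 42 in neurons (-0.45, adjusted p = 0.0239, edgeR). In progenitor 2, SLC1A3 (0.50, SE 0.12, adjusted p = 0.00282, edgeR) and FABP7 (1.27, SE 0.37, adjusted p = 0.0274, edgeR) were higher at day 42. Over all nuclei SLC1A3 pointed the other way (-0.96, SE 0.15, adjusted p = 0.00853, edgeR), and the mesenchymal share of nuclei was 0.934% and 0.719% at day 42 against 13.5% and 14.5% at day 38.

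Transcripts from the opposite strand of SLC1A3 were counted beside it. AC008957.2 (chr5:36636019-36649347) gave 7647 UMIs, 40.9% of the SLC1A3 number, and AC008957.1 (chr5:36666214-36725195) gave 2427, or 12.99%. AC008957.2 stood at 169, 104, 90.3 and 54.8 CPM in progenitor 2 of control 1, control 2, PP121 1 and PP121 2, and at 358 to 969 in mesenchymal nuclei. In the blocked fit of progenitor 2, AC008957.2 changed by -0.89 (SE 0.13, adjusted p = 3.04e-07, edgeR) and AC008957.1 by -0.72 (adjusted p = 0.000734, edgeR). Whether the counting used strand is not given in the sources used here, so reads of SLC1A3 and of these transcripts cannot be told apart with certainty. VIM has AL133415.1 on its opposite strand, with 2107 UMIs, or 3.40% of its number.

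**Figure D5:**
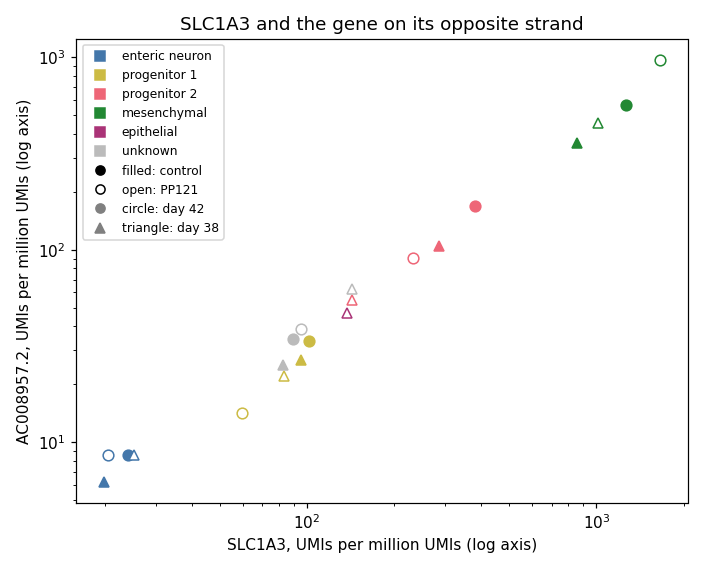
Level of AC008957.2 against that of SLC1A3, both in CPM on log axes, for the 21 sums of a class and sample with at least 30 nuclei; colour gives the class, shape the day and filling the treatment. AC008957.2 stood at 23.9% to 58.5% of the SLC1A3 UMIs in these sums.

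Across the 21 sums of at least 30 nuclei, the genes most like each member were ranked by Pearson's r of log2(CPM + 1) among 14054 genes. The sums share samples, so r is a description. For SLC1A3 they were AC008957.2 (0.993), AC008957.1 (0.965) and LPAR1 (0.954), a lysophosphatidic acid receptor gene. For SLC1A2 they were SNAP91 (0.954), which serves synaptic vesicle uptake, GPRIN1 (0.940) and GAD1 (0.939), a GABA-making enzyme. For VIM they were PARD3 (0.869), a polarity protein gene, CD99 (0.865) and HSPG2 (0.857), and for NES they were THBS3 (0.951), TTYH1 (0.950) and AC079385.1 (0.946). The other 4 genes stayed under 10 CPM in every class and were not ranked.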

How the data were processed

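Nuclei of 4 ganglioid samples were sequenced on a 10x Chromium 3′ platform. The deposited counts are UMIs per gene and nucleus; the authors' processing notes name Cell Ranger, Seurat 4.0.4 and GRCh38, the study's methods name kallisto and bustools, and which of these made the tables, whether introns were counted and whether strand was used are not given in the sources used here. The deposited percent of ribosomal counts per nucleus was used only to describe nuclei. Class, subtype, transmitter, phase and day were taken as the authors deposited them, and nuclei they marked as filtered were dropped.

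Counts were summed per class and sample. edgeR 4.0.16 (R 4.3.3; TMM, filterByExpr, glmQLFit and glmQLFTest, Benjamini-Hochberg, threshold 0.05) was fitted over all genes; DESeq2 1.42.0 was an alternative. The replicate number marks the day in the annotation and so pairs the samples; same-numbered samples deviated together (r = 0.697 over all nuclei, 0.608 in neurons, 0.579 in progenitor 1, 0.452 in progenitor 2). Sums of mesenchymal, epithelial and unknown nuclei were not tested, and classes were not tested against each other, since they were drawn from expression. Scanpy 1.11.5 clustered the 4 samples jointly (2000 variable genes without the listed ones, 30 components, 15 neighbours, resolution 0.5, chosen after the class make-up of the clusters was seen), and each of 16 clusters took the class of most of its nuclei. Scrublet's own threshold marked 0, 0, 1 and 0 nuclei and so had not worked, and as an alternative the 5% of nuclei with the highest scores per sample were left out. The code of the fits was tested on simulated data without a day effect, which does not bear on single calls. Shares carry exact Clopper-Pearson 95% intervals, which cover counting error only. Gene positions are from GENCODE v29 on GRCh38, matched by symbol. The members, the gene lists and the tests were chosen with earlier results of these data known. From each list, genes with an adjusted p under 0.05 are named, at most 3 per list and fit by p, beside those shown to check a class; PRPH is an exception, named after its value was seen. Some listed genes are counted but not reported here by name.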

Additional observations from a re-analysis of the deposited data

How the results depend on the processing

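Every count below is of genes at an adjusted p under 0.05, given over all nuclei, in neurons, in progenitor 1 and in progenitor 2 in that order. Without the replicate block none was called for PP121, and with it 213, 3152, 593 and 1267. DESeq2's Wald test called 50, 80, 1 and 106, and 291, 618, 67 and 222 with the block. Keeping every gene called 1, 69, 81 and 768. DESeq2's size factors with the block called 315, 2209, 585 and 1313, and leaving out doublet candidates with the block 405, 2974, 668 and 1355. Joint classes with the block called 1355, 95 and 671 in the 3 classes, and neurons without those called Non-Neuronal, with the block, 2306. Of the 8 genes, none was called in the fits as reported without the block, and 0, 2, 1 and 2 with it, 0, 1, 1 and 2 with DESeq2's size factors and the block, and 1, 2, 1 and 2 with doublet candidates left out and the block. The Wald test with the block called 1 over all nuclei (VIM) and 1 in progenitor 2 (SLC1A3), joint classes with the block 0 in neurons, 1 in progenitor 1 and 1 in progenitor 2, neurons without the Non-Neuronal nuclei 1, and keeping every gene 1 in progenitor 2.

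Leaving out 1 sample, in fits without the block that assume the lone sample varies like the other group, gave 0 to 8, 0 to 1402, 6 to 349 and 0 to 1052 genes for PP121, and 0 to 1 of the 8 genes in neurons and 0 to 2 in progenitor 2, the highest counts without PP121 replicate 1, where SLC1A3 changed by -1.17 in progenitor 2. With the block, leaving out a sample leaves no residual degrees of freedom. The direction of some values turned. SLC1A3 in neurons was 0.09 and became -0.47 in joint classes (-0.48 with the block) and -0.28 without the Non-Neuronal nuclei (-0.33 with the block). SLC1A2 in progenitor 1 became -0.26 and -0.29 in joint classes, and in progenitor 2 it became 0.14 without doublet candidates with or without the block (0.14 in both) and 0.25 and 0.24 in joint classes. Leaving out 1 sample gave, over all nuclei, FABP7 -1.37 to 0.0032, SLC1A3 -0.92 to 0.33 and SLC1A2 -0.0046 to 0.22, in neurons SLC1A3 -0.088 to 0.26 and VIM -0.047 to 0.74, in progenitor 1 NES -0.14 to 0.24, and in progenitor 2 FABP7 -1.74 to 0.019 and SLC1A2 -0.63 to 0.28.

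Between days, the treatment term took the count from 174 to 1332 over all nuclei, and to 2015, 2350 and 908 in the classes, with 3, 2, 1 and 2 of the 8 genes. Keeping every gene called 158, 1261 and 415 in the classes, with 1 of the 8 in progenitor 1. Leaving out 1 sample gave 143 to 1299, 2 to 271, 0 to 999 and 0 to 48 genes, 0 to 2 of the 8 genes over all nuclei and 0 to 1 in progenitor 1, with SLC1A3 -0.27 to 0.12 in neurons and -0.76 to 0.032 in progenitor 1, and VIM -0.33 to 0.18 in progenitor 2. For the difference of the PP121 effect, none of the 8 genes was called in any setting. Genes called were 217 for progenitor 1 minus neurons, 122 for progenitor 2 minus neurons and 18 for progenitor 1 minus progenitor 2 with the replicate block within classes, 175, 35 and 10 with joint classes and that block, and 1 with joint classes in the first and the third. Leaving out 1 sample gave 0 to 33, 0 to 15 and 0 to 26 genes. VIM in progenitor 2 minus neurons was 0.0098 with DESeq2's size factors and -0.39 to 0.44 without a sample, and in progenitor 1 minus progenitor 2 SLC1A3 was -0.35 to 0.95 and VIM -0.21 to 0.46.

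For G2M against G1, leaving out 1 sample gave 255 to 724 genes in progenitor 1, NES there -0.16 to 0.013, and 0 to 1 of the 8 genes in progenitor 2, where joint classes called 1. In joint classes SLC1A3 was -0.14 in progenitor 1 and VIM -0.038 in progenitor 2. Differences in the share of nuclei with a UMI turned for SLC1A3 in neurons at 4000 UMIs (-0.276 percentage points) and in joint classes (-0.321), SLC1A2 (-0.370) and NES (0.188) in joint progenitor 1, VIM in progenitor 1 without thinning (-1.49) and SLC1A2 in progenitor 2 at 4000 UMIs (0.617). The cause of these changes was not tested. For PP121 values of single genes, 303 other settings were set against the fit without the block, where none of the 8 was called. Of these, 259 kept direction and stayed uncalled, 24 kept direction and became called, and 20 turned direction. The count of 259 therefore does not bear on the stability of the calls made with the block. Depth limits S100B, GFAP, AQP4 and FABP7, and 2 samples a group limit every test.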

Other observations

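Nuclei that the authors' annotation dropped held more VIM than those it kept. The dropped nuclei stood at 906, 1095, 709 and 1215 CPM in control 1, control 2, PP121 1 and PP121 2, against 372, 546, 518 and 779 in the annotated nuclei. In the same order, NES was 46.3, 49.5, 51.2 and 71.8 in the dropped nuclei, against 38.9, 39.4, 43.4 and 52.0. FABP7 was 5.42, 1.86, 2.89 and 3.69, against 3.55, 1.49, 2.09 and 0.942. SLC1A3 was lower in the dropped nuclei of each sample, at 122, 122, 95.5 and 139, against 144, 215, 96.7 and 220. S100B, GFAP and AQP4 each stayed at or under 0.504 CPM in the dropped nuclei of every sample.

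Summed CPM of the motile cilia genes in the unknown class were 559, 514, 1615 and 2920 in control 1, control 2, PP121 1 and PP121 2.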
